A study of Macaca mulatta with 2 samples.

Results

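The transcripts examined here encode 6 cytokine receptor chains of the common gamma chain family, namely *IL2RG*, *IL2RB*, *IL15RA*, *IL7R*, *IL4R* and *IL21R*. They are 6 of the 35432 genes listed in the count table and were taken by name, with earlier results of these data known. Each gene was followed in T cells with at least 1 unique molecular identifier (UMI, the tag that marks 1 captured RNA molecule) of *CD3E*, a chain of the T cell receptor complex. The study isolated double-positive (DP) T cells, which carry both CD4 and CD8, from the blood of 1 healthy, untreated rhesus monkey aged 6 years. Blood mononuclear cells were first enriched with releasable CD4 beads and then with CD8 beads, and the same cells gave a gene expression library and an antibody tag library for CD4 and CD8. All values are therefore those of 1 animal and 1 preparation, with no replicate, so no test between conditions was possible. Every interval below is a 95% interval that covers counting error only.

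The common gamma chain, encoded by *IL2RG*, is the signalling subunit shared by the receptors for IL-2, IL-4, IL-7, IL-9, IL-15 and IL-21, and it acts through the kinase JAK3 while the partner chains act mainly through JAK1. IL-7 keeps resting naive and memory T cells alive, whereas IL-15, read by the beta chain *IL2RB*, maintains memory and cytotoxic lymphocytes. IL-4 and IL-21 act on helper and B cell responses, and *IL15RA* and *IL2RA* encode the private alpha chains that give high affinity for IL-15 and IL-2.

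On the Mmul_10 genome, the RefSeq annotation placed *IL7R* on chromosome 6 from 35634225 to 35656839 and *IL2RB* on chromosome 10 from 14420978 to 14444480, both on the forward strand. *IL4R* spans 25658898 to 25709063 on chromosome 20, and *IL21R* starts 34496 bases after its end on the same strand, at 25743560, and runs to 25791744. *IL15RA* lies on the reverse strand of chromosome 9 from 7117792 to 7152250. *IL2RG* lies on the reverse strand of chromosome X from 68094579 to 68105451 and overlaps *MED12* on the other strand. The level of *MED12* was 16.7 CPM (UMIs of the gene scaled to 1000000 gene UMIs) over all *CD3E*+ cells. It was between 16.2 and 22.6 CPM in the gates and in the *CCR7*+ *GZMB*-low and *GZMB*+ *CCR7*- classes defined below. Other groups were not read for *MED12*.

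The deposited matrix held 7923 barcodes, and 7601 cells and 14459 genes passed the study's stated filters. *CD3E* was detected in 7311 of these cells, or 96.2%, with 30109982 gene UMIs in all, a median of 3655 per cell and a range from 509 to 23511. A further 86 cells had B cell genes and no CD3 transcript. They served as the background for *IL7R* and *IL2RB*. With the 90th percentile of the tag counts of those 86 cells as the limit, 3592 *CD3E*+ cells (49.1%) were above both tag limits, 3270 above that of CD4 only, 186 above that of CD8 only and 263 above neither. The comparison of naive-type and cytotoxic cells is given below for cells above both limits and for cells above that of CD4 only. Cells under the CD8 limit are not shown to lack CD8. That limit, 330.5 UMIs, lay near the median of all *CD3E*+ cells, 342 UMIs. Cells above the CD4 limit only had a median of 191 CD8 tag UMIs, against 139.5 in the B gene cells. The study reported high CD4 and CD8 tag signal in all its clusters.

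Cells were sorted into gates by raw UMIs of 7 genes that mark known T cell states. *CCR7*, the homing receptor of naive and central memory cells, gave 2163 cells, and *GZMB*, the cytotoxic protease granzyme B, gave 2770 cells at 3 or more UMIs. The other gates needed 1 UMI. They were *EOMES*, a T-box factor of cytotoxic and memory cells (356 cells), *TRAV10*, a variable segment that invariant natural killer T receptors use (247), *FOXP3*, the factor of regulatory T cells (162), *CCR9*, a gut-homing receptor (479), and *CXCL13*, a chemokine of follicular helper T cells (73). A *TRAV10* UMI alone does not show that a cell is an invariant natural killer T cell. The study found its *TRAV24*-like segment and *TRAJ18* to be absent or very low. Some cells passed several gates: 71.0% of *FOXP3*+, 57.5% of *CXCL13*+ and 42.8% of *CCR9*+ cells were also *CCR7*+, and 31.5% of *EOMES*+ and 34.0% of *TRAV10*+ cells were also *GZMB*+. Each gate carried its usual companions at higher levels than the other *CD3E*+ cells, for example *LEF1* in *CCR7*+ cells at a log2 ratio of 1.77, *CX3CR1* in *GZMB*+ cells at 4.61 and *CTLA4* in *FOXP3*+ cells at 2.15.

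Between naive-type and cytotoxic cells, *IL7R* was higher in the former while *IL2RG* and *IL2RB* were higher in the latter. This comparison set 1995 *CCR7*+ cells with fewer than 3 *GZMB* UMIs (*CCR7*+ *GZMB*-low) against 2602 *GZMB*+ cells without *CCR7* (*GZMB*+ *CCR7*-). Naive-type is only a label for the first class, which can hold central memory cells and cells of the smaller gates. The 1526 of them that passed no other gate had *IL2RB* at 39.6 CPM, against 53.7 CPM in the whole class. For *IL2RA* these values were 13.2 and 17.2 CPM. Of the 6 members, 1 was higher and 3 were lower by at least 1.5-fold in the *CCR7*+ *GZMB*-low cells. Of the 6665 genes with at least 10 CPM, 7.2% were higher and 25.4% lower by this fold, 32.6% in all. *IL15RA* and *IL21R*, at 5.68 and 7.94 CPM over all *CD3E*+ cells, were under that floor, so that 4 of the 6 members were among the genes counted, of which 1 was higher and 2 lower. The median log2 ratio was -0.61 over the 6 members. Over the 4 members that reach the floor it was -0.24, near the -0.28 of the 6665 genes.

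In single gates, 0 members were higher and 3 lower in *CCR7*+ cells, where 2.78% of the 6665 genes were higher and 10.6% lower, 13.4% in all. In *GZMB*+ cells 2 were higher and 2 lower, against 15.8% and 5% of genes, 20.8% in all. In *EOMES*+ cells 1 was higher and none lower, against 2.37% and 3.24%, 5.61% in all, and in *TRAV10*+ cells none was higher and 1 lower, against 2.24% and 5.12%, 7.35% in all. In *FOXP3*+ cells 1 was higher and 1 lower, against 4.58% and 14.9%, 19.5% in all. In *CCR9*+ cells none was higher and 2 lower, against 1.98% and 7.56%, 9.54% in all. In *CXCL13*+ cells none was higher and 4 lower, against 13.5% and 17.3%, 30.8% in all. These counts include the sparse members, which are named below. With the 4 members at 10 CPM or more, the counts for these 7 gates in the same order were 2, 4, 1, 0, 1, 1 and 2. A family of 6 genes is too small to set such counts against the background, and the results below rest on each gene's own values. The shares of genes also depend on how many UMIs a gate holds, so they are not compared between gates.

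**Figure D1:**
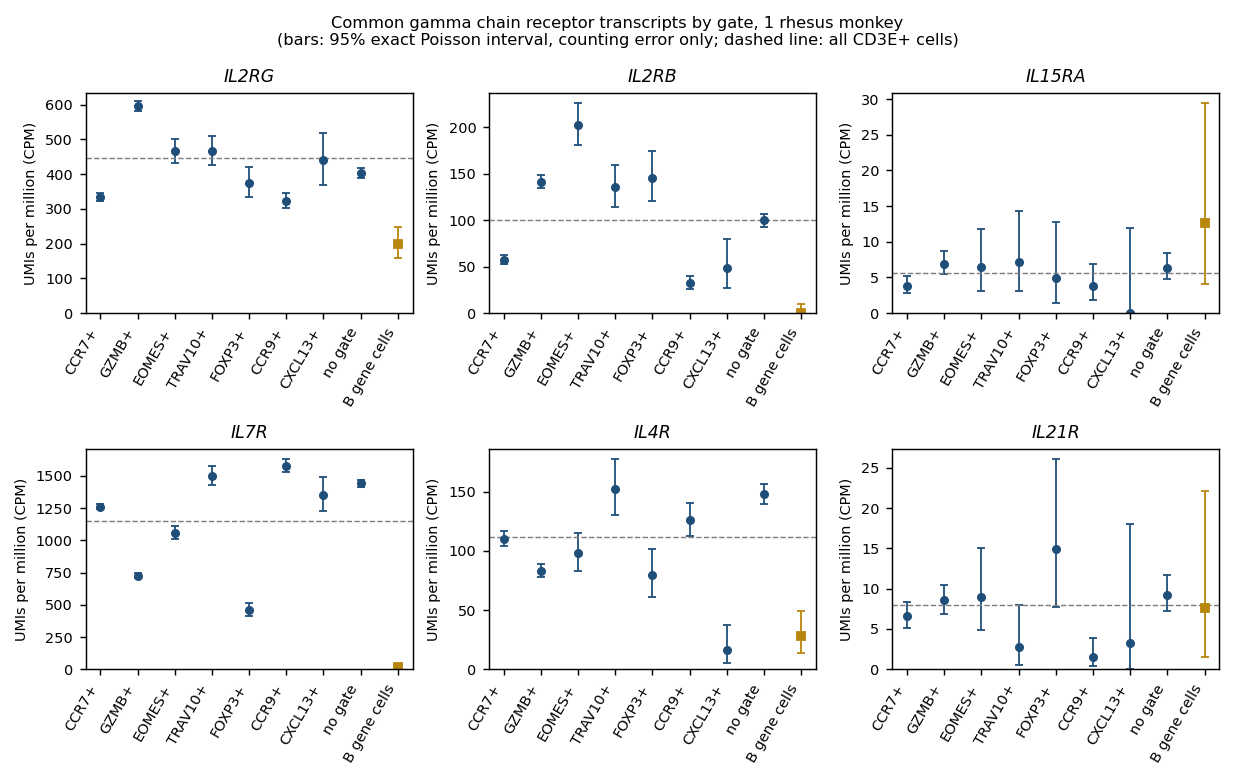
Level of each receptor transcript in CPM (vertical axis, linear, starting at 0) in the 7 gates, in *CD3E*+ cells that passed no gate (blue circles) and in 86 B gene cells without CD3 (yellow squares), with 95% exact Poisson intervals. *IL2RB* was highest in *EOMES*+ cells at 202 CPM and lowest among the gates in *CCR9*+ cells at 32.0 CPM, while *IL7R* was lowest in *FOXP3*+ cells at 462 CPM.

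*IL2RG*, the shared chain, was found in 78.5% of *CD3E*+ cells and at 446 CPM (439 to 454) over all of them. Its level was 333.7 CPM (323 to 345) in *CCR7*+, 597 CPM (582 to 611) in *GZMB*+, 466 CPM (432 to 501) in *EOMES*+ and 466 CPM (427 to 508) in *TRAV10*+ cells. In *FOXP3*+ cells it was 375 CPM (334 to 420.0), in *CCR9*+ cells 323 CPM (301 to 345), in *CXCL13*+ cells 439 CPM (368 to 520) and in cells of no gate 404 CPM (390.0 to 419). Only the *GZMB*+ interval lay above that of all *CD3E*+ cells. The *GZMB*+ *CCR7*- cells had 1.93-fold more than the *CCR7*+ *GZMB*-low cells, with 624 CPM against 323 CPM and a log2 ratio of -0.95 (-1.01 to -0.89) for the latter over the former. The ratio was -0.92 in cells above both tag limits and -0.94 in cells above that of CD4 only. B gene cells had 199 CPM, and B cells also use this chain, so they give no background for it.

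The level of *IL2RG* was higher with each group of more *GZMB* UMIs, apart from 1 step. It was 350 CPM (341 to 359) in cells without *GZMB*, 461 CPM (424 to 501) with 1 UMI and 547 CPM (492 to 606) with 2. It was 543 CPM (520 to 566) with 3 to 9 UMIs, 609 CPM (586 to 633) with 10 to 19 and 663 CPM (631 to 696) with 20 or more. Of the neighbouring steps, those between 0 and 1 UMI and between 3 to 9 and 10 to 19 UMIs had intervals that were apart, and cells with 20 or more stood 1.90-fold above cells with none. Cells with the most *GZMB* UMIs were the deeper ones among *GZMB*+ cells, with a median of 3831 UMIs against 3158 at 3 to 9, and the CPM scale divides by this depth.

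*IL2RB*, the beta chain that signals for IL-2 and IL-15, was detected in 28.2% of *CD3E*+ cells, at 100.4 CPM (96.9 to 104). None of the 86 B gene cells had an *IL2RB* UMI. Taken as 3 counts, the limit that a count of 0 sets is a share of 3.49% of cells with a UMI, and 7.56 CPM, which is no limit on how many cells express the gene. Its level ran from 32.0 CPM (25.5 to 39.5) in *CCR9*+ cells and 48.4 CPM (27.1 to 79.9) in *CXCL13*+ cells through 57.6 CPM (53.2 to 62.4) in *CCR7*+ cells and 99.9 CPM (92.9 to 107) in cells of no gate. It was 136 CPM (115 to 159) in *TRAV10*+, 141 CPM (134 to 149) in *GZMB*+, 145 CPM (120.2 to 174) in *FOXP3*+ and 202 CPM (181 to 226) in *EOMES*+ cells. The *EOMES*+ cells lay above every other gate, the *TRAV10*+, *GZMB*+ and *FOXP3*+ intervals overlapped each other, and the *CCR9*+ and *CXCL13*+ intervals overlapped too.

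The *IL2RB* difference between cytotoxic and naive-type cells had the largest ratio of the 6 members on this axis, though its interval overlapped that of the sparse *IL15RA*. *GZMB*+ *CCR7*- cells had 149.7 CPM and *CCR7*+ *GZMB*-low cells 53.7 CPM, a ratio of 2.79 and a log2 ratio of -1.48 (-1.63 to -1.33). The ratio was -1.66 in cells above both tag limits and -1.24 in cells above that of CD4 only. Along *GZMB* the level was 69.7 CPM (65.8 to 73.7) without a UMI, 143 CPM (122 to 166) with 1 UMI and 171 CPM (141 to 205) with 2. Beyond that it was 159 CPM (147 to 172) at 3 to 9 UMIs, 133 CPM (122 to 145) at 10 to 19 and 128 CPM (115 to 143) at 20 or more. Thus *IL2RB* was already 2.05-fold higher at 1 UMI of *GZMB* and did not go higher past 2, unlike *IL2RG*. Among *GZMB*-low cells, those without *CCR7* had 99.8 CPM (93.8 to 106) and those with 1 *CCR7* UMI 48.5 CPM (42.1 to 55.7).

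**Figure D2:**
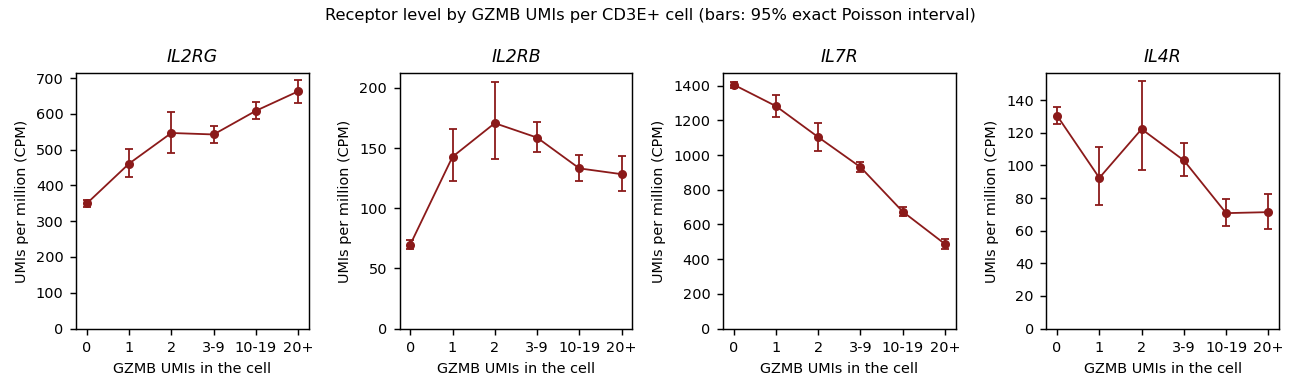
Levels of *IL2RG*, *IL2RB*, *IL7R* and *IL4R* in CPM (vertical axes, linear from 0) in *CD3E*+ cells grouped by their *GZMB* UMIs (horizontal axis, 6 groups of unequal width), with 95% exact Poisson intervals. *IL7R* went from 1406 to 487 CPM and *IL2RG* from 350 to 663 CPM, while *IL2RB* was highest at 2 UMIs with 171 CPM.

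In *EOMES*+ cells *IL2RB* was the member past 1.5-fold, with 202 CPM against 94.9 CPM in the other *CD3E*+ cells and a log2 ratio of 1.09 (0.92 to 1.26). The other 5 members were within 1.5-fold there. For *IL15RA* (10 UMIs, -0.90 to 1.10) and *IL21R* (14 UMIs, -0.70 to 0.97) the intervals also allow larger differences. Since *EOMES*+ cells are partly *GZMB*+ and partly *CCR7*+, the *IL2RB* difference was taken again within each class, a comparison chosen after the first values were seen. Among *CCR7*+ cells, *IL2RB* was 3.87-fold higher in the 136 *EOMES*+ cells (189 against 48.8 CPM, log2 ratio 1.95, 1.66 to 2.24). Among *CCR7*- cells it was 1.78-fold higher, among *GZMB*-low cells 2.90-fold and among *GZMB*+ cells 1.42-fold (log2 ratio 0.50, 0.22 to 0.78). The level in *EOMES*+ cells was thus between 189 and 213 CPM in all 4 classes, while that of the cells without *EOMES* ranged from 48.8 to 138 CPM. The 4 ratios therefore differed mainly in their denominators.

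The *FOXP3*+ cells had *IL2RB* at 145 CPM against 99.2 CPM, a log2 ratio of 0.55 (0.27 to 0.82), just under the 1.5-fold limit. Within *CCR7*+ cells, which hold 71.0% of them, *IL2RB* was 2.74-fold higher in *FOXP3*+ cells (144 against 52.6 CPM). Within *CCR7*- cells the 47 *FOXP3*+ cells did not differ beyond counting error, with a log2 ratio of 0.26 (-0.29 to 0.77). *CCR9*+ cells were the opposite case, with 32.0 CPM against 107 CPM and a log2 ratio of -1.74 (-2.07 to -1.43). The *CCR9*+ cells were lower within all 4 classes, with log2 ratios of -0.76 (-1.23 to -0.31) in *CCR7*+, -2.20 in *CCR7*-, -1.92 in *GZMB*+ and -1.43 in *GZMB*-low cells. In *TRAV10*+ cells the log2 ratio was 0.45 (0.21 to 0.69) over all cells and 0.75 (0.42 to 1.06) among *GZMB*-low cells. It was 0.36 (0.10 to 0.62) among *CCR7*- cells, while the intervals included 0 among *GZMB*+ cells (0.08, -0.32 to 0.45) and among *CCR7*+ cells (0.27, -0.47 to 0.93).

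*IL15RA*, the private chain for IL-15, was scarce, with 171 UMIs in 168 of 7311 cells, or 2.30% of them. In B gene cells the share was 5.81% (1.91 to 13.0), on 5 UMIs, with an interval that includes that of the T cells. Whether B gene cells express *IL15RA* themselves was not tested. They therefore give no background by which its detection in T cells could be separated from free RNA. The *CCR7*+ *GZMB*-low cells had 31 UMIs (3.34 CPM, 2.27 to 4.73) and the *GZMB*+ *CCR7*- cells 64 (6.83 CPM, 5.26 to 8.72), a log2 ratio of -1.03 (-1.70 to -0.39). In cells above both tag limits the ratio was -0.55 (-1.40 to 0.28), within 1.5-fold on the log2(CPM + 1) scale and with an interval that includes 0, and in cells above that of CD4 only it was -2.08 (-3.51 to -0.88), on 7 and 32 UMIs. In the 5 smaller gates it rested on 0 to 10 UMIs with overlapping intervals. *CXCL13*+ cells had none, which by the same limit of 3 counts allows up to 9.69 CPM, above the level of all *CD3E*+ cells, so a lower level there was not detectable at this depth.

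*IL7R*, the alpha chain of the IL-7 receptor, was detected in 85.8% of *CD3E*+ cells against 8.14% of B gene cells, whose median depth was 4121.5 UMIs against 3655. Over all *CD3E*+ cells its level was 1153 CPM (1140.5 to 1165), and in the B gene cells 20.2 CPM (8.71 to 39.7). In *CCR9*+ cells it was 1579 CPM (1532 to 1627), in *TRAV10*+ cells 1502 CPM (1430.4 to 1576), in cells of no gate 1443 CPM (1416 to 1470.1) and in *CXCL13*+ cells 1353 CPM (1227 to 1489). These were the groups with the highest *IL7R* values. The *TRAV10*+ interval overlapped those of *CCR9*+ cells, cells of no gate and *CXCL13*+ cells. That of *CXCL13*+ cells also overlapped those of cells of no gate and *CCR7*+ cells. It was 1260.1 CPM (1239 to 1282) in *CCR7*+, 1059 CPM (1009 to 1112) in *EOMES*+, 727 CPM (711 to 743) in *GZMB*+ and 462 CPM (416 to 512) in *FOXP3*+ cells. The *GZMB*+ and *FOXP3*+ cells thus stood apart below all other groups.

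Along *GZMB*, *IL7R* was lower at every step, from 1406 CPM (1389 to 1424) without a UMI through 1283, 1104, 931 and 674 CPM to 487 CPM (460.2 to 516) at 20 or more. All 6 intervals were apart from their neighbours. The *CCR7*+ *GZMB*-low cells had 1311 CPM and the *GZMB*+ *CCR7*- cells 699.9 CPM, a log2 ratio of 0.91 (0.86 to 0.95), with 0.89 in cells above both tag limits and 0.81 in cells above that of CD4 only. Among *GZMB*-low cells the level was 1459 CPM (1436 to 1483) at 0 *CCR7* UMIs, 1402 CPM (1366 to 1438) at 1, 1285 CPM (1240 to 1331) at 2 and 1196 CPM (1156 to 1238) at 3 or more. The cells with the most *CCR7* were also deeper, with a median of 4551 UMIs against 3733 in those without, and the mean *IL7R* count per cell was 6.09 UMIs in the former and 5.78 in the latter. A lower *IL7R* level with more *CCR7* was therefore seen per UMI and not per cell. Over all *CD3E*+ cells, *GZMB*+ ones included, *IL7R* CPM at 1, 2 and 3 or more *CCR7* UMIs was 1.22, 1.12 and 1.07 times that at 0.

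The low *IL7R* of *FOXP3*+ cells was present inside the classes as well. The ratio over the other *CD3E*+ cells was 0.39, with a log2 ratio of -1.34 (-1.49 to -1.19). It was -1.55 (-1.73 to -1.37) within *CCR7*+ cells, -1.13 (-1.42 to -0.86) within *CCR7*- cells and -1.70 (-1.86 to -1.54) within *GZMB*-low cells, so *FOXP3*+ cells had 440.2 CPM against 1426 CPM in the last class. *IL2RA*, the alpha chain of the IL-2 receptor and a companion that checked this gate, was 108 CPM against 8.74 CPM. In *TRAV10*+ cells *IL7R* was within 1.5-fold in the whole comparison, at a log2 ratio of 0.40 (0.33 to 0.47), and 1.68-fold higher among *GZMB*+ cells, where the 84 *TRAV10*+ cells had 1193 CPM against 708 CPM. It was within 1.5-fold in the other 3 classes, with log2 ratios of 0.15 to 0.52. In *CCR9*+ cells *IL7R* was 1.19-fold higher among *GZMB*-low cells, which hold 446 of the 479, and 1.21-fold among *CCR7*+ cells, both within 1.5-fold. It was 1.58-fold higher among *CCR7*- cells and 1.83-fold among *GZMB*+ cells, the last on 33 *CCR9*+ cells.

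**Figure D3:**
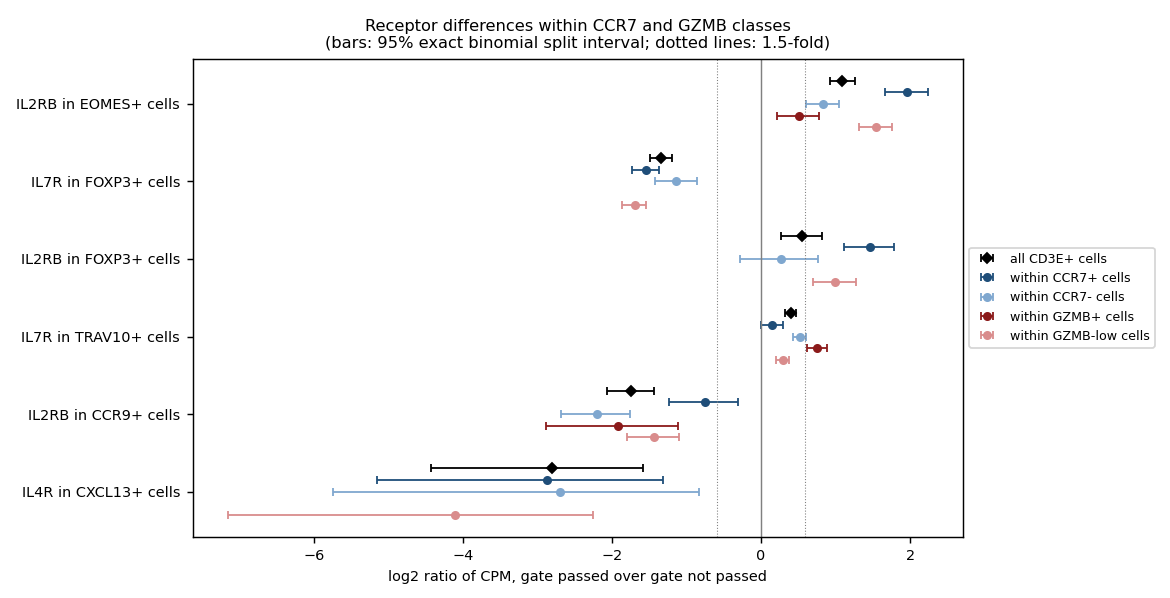
Log2 ratio of CPM between cells that passed a gate and cells that did not (horizontal axis, linear in log2), for 6 pairs of receptor and gate, over all *CD3E*+ cells (black diamonds) and within *CCR7*+, *CCR7*-, *GZMB*+ and *GZMB*-low cells (circles), with 95% exact intervals; classes with under 30 gate cells are not drawn. *IL2RB* in *EOMES*+ cells ran from 0.50 within *GZMB*+ cells to 1.95 within *CCR7*+ cells, and *IL7R* in *FOXP3*+ cells was below -1.1 in all classes drawn.

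*IL4R*, the alpha chain of the IL-4 receptor, was detected in 33.5% of *CD3E*+ cells at 112 CPM (108 to 116), and in 9.30% of B gene cells at 27.7 CPM. It was 153 CPM (131 to 178) in *TRAV10*+, 148 CPM (139 to 157) in cells of no gate, 126 CPM (113 to 140.2) in *CCR9*+ and 110.3 CPM (104 to 117) in *CCR7*+ cells. It was 98.3 CPM (83.3 to 115) in *EOMES*+, 83.0 CPM (77.6 to 88.6) in *GZMB*+ and 79.5 CPM (61.2 to 102) in *FOXP3*+ cells. The cells of no gate, neither *CCR7*+ nor *GZMB*+, were thus above both of those gates. The difference between *CCR7*+ *GZMB*-low and *GZMB*+ *CCR7*- cells was smaller than for the other abundant members, with a log2 ratio of 0.48 (0.34 to 0.61). It was 0.38 (0.19 to 0.56) in cells above both tag limits and 0.62 (0.40 to 0.85), past 1.5-fold, in cells above that of CD4 only.

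*CXCL13*+ cells had 5 *IL4R* UMIs in 73 cells, or 16.2 CPM (5.24 to 37.7), where the remaining *CD3E*+ cells had 113 CPM. This was a 6.99-fold lower level, with a log2 ratio of -2.81 (-4.43 to -1.58). It was lower within *CCR7*+ cells (3 UMIs in 42 cells, -2.87, -5.15 to -1.32), within *CCR7*- cells (2 UMIs in 31 cells, -2.69, -5.74 to -0.84) and within *GZMB*-low cells (2 UMIs in 65 cells, -4.11, -7.15 to -2.25). The rest of the 5 UMIs lay in the 8 *CXCL13*+ cells that were also *GZMB*+. These were too few to compare, so a lower *IL4R* level is not shown among *GZMB*+ cells. The same 73 cells had *IL7R* in 98.6% and *IL2RG* in 76.7% of cells, so the low *IL4R* was not shared by every member. Their *IL2RB* rested on 15 UMIs.

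*IL21R*, the IL-21 receptor chain, gave 239 UMIs in 3.20% of *CD3E*+ cells, a share at the level of the B gene cells (3.49%, on 3 UMIs), which can express this gene themselves. On the axis of *CCR7* and *GZMB* it did not differ beyond counting error, with a log2 ratio of -0.42 (-0.91 to 0.07). The ratio was -0.17 (-0.86 to 0.52) in cells above both tag limits, and -0.82 (-1.64 to -0.04), past 1.5-fold and on 22 and 42 UMIs, in cells above that of CD4 only. *CCR9*+ cells had 4 UMIs in 479 cells, (0.41 to 3.85 CPM), against 8.56 CPM, a log2 ratio of -2.51 (-4.40 to -1.13). *FOXP3*+ cells had 12 UMIs in 162 cells, 14.9 CPM (7.70 to 26.0), with an interval of the log2 ratio that includes 0 (0.94, -0.03 to 1.78). *TRAV10*+ cells had 3 UMIs and *CXCL13*+ cells 1.

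Several of these genes were compared in the same cell after each cell had been thinned to 2000 UMIs, which left 6935 cells and left out 376 shallower ones. *IL7R* without *IL2RB* was the most frequent pattern, in 64.3% of *CD3E*+ cells, followed by neither in 18.2%, both in 12.8% and *IL2RB* alone in 4.76%. *IL7R* without *IL2RB* was found in 78.0% of *CCR7*+ *GZMB*-low and 87.8% of *CCR9*+ cells but in 46.4% of *GZMB*+ *CCR7*- cells. Both were found most often in *EOMES*+ cells, with 24.5%, and in *TRAV10*+ cells, with 21.9%. Neither was found in 42.0% of *FOXP3*+ cells. Detection after thinning understates expression, so that "neither" means not captured.

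**Figure D4:**
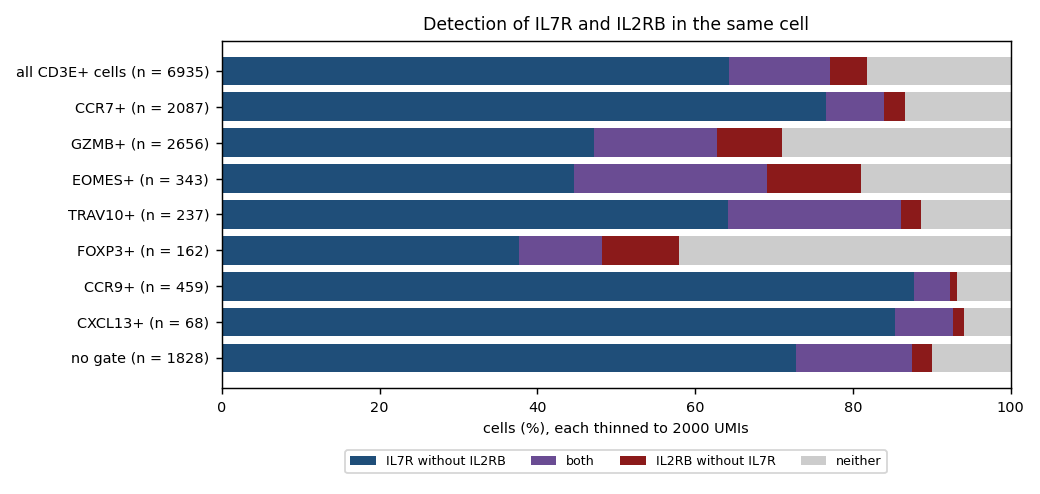
Shares of cells (horizontal axis, percent) with a UMI of *IL7R* without *IL2RB*, of both, of *IL2RB* without *IL7R* and of neither, after each cell was thinned to 2000 UMIs, for all *CD3E*+ cells, the 7 gates and cells of no gate. The share of cells with both was 24.5% in *EOMES*+ and 4.58% in *CCR9*+ cells.

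Across all thinned *CD3E*+ cells, *IL2RG* and *IL2RB* were found together in 812 cells where 699 were expected from their separate shares, a ratio of 1.16 (1.08 to 1.24). Inside the *GZMB*+ *CCR7*- cells the ratio was 1.03 (0.94 to 1.14), and inside the *CCR7*+ *GZMB*-low cells 1.18 (0.95 to 1.44). *IL7R* and *IL4R* had a ratio of 1.07 (1.01 to 1.13) over all cells, and 1.06 (0.93 to 1.21) and 1.03 (0.92 to 1.15) in the same classes. *IL7R* and *IL2RB* had 0.95 (0.88 to 1.01). These intervals cover the counting error of the cells with both only. They are wide for a gene found in most cells, so an interval that includes 1 does not show independence. Of the 15 pairs of members, only the first 2 above had an interval that left out 1 over all cells. Inside both classes their intervals included it. Since the widths depend on how often each gene was found, this does not show which pairs depart most from their separate shares. For *IL7R*, *IL2RB* and both, the shares were 84.7%, 9.01% and 6.67% in *CCR7*+ *GZMB*-low cells. In *GZMB*+ *CCR7*- cells they were 61.9%, 23.9% and 15.5%.

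Between cells above both tag limits and cells above that of CD4 only, few genes differed. Both groups hold more cells than any gate, so their share is not set against those of the gates. Of 6665 genes, 0.9% differed by 1.5-fold between cells above both tag limits and cells above the CD4 limit only, and none of the 6 members did. *IL2RB* came closest, with 82.6 CPM against 119 CPM and a log2 ratio of -0.53 (-0.64 to -0.42). Among *GZMB*-low cells it was 58.2 CPM against 98.6 CPM, a log2 ratio of -0.76 (-0.91 to -0.61), which is past 1.5-fold. Among *GZMB*+ cells it was 125 CPM against 162 CPM, or -0.37 (-0.53 to -0.22). The sparse *IL21R* was past 1.5-fold among *GZMB*+ cells, at -0.68 (-1.32 to -0.04), on 43 and 44 UMIs. *IL7R* was slightly higher in cells above both limits, at a log2 ratio of 0.13 (0.10 to 0.16). The 186 cells above the CD8 limit only stood further off. They had *IL2RB* at 231 CPM (194 to 272), and *IL7R* at 694 CPM against 1211 CPM in cells above both. Of these 186 cells 58.1% were *GZMB*+, against 38.5% of cells above both limits, and the part of this was not tested.

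Markers of other cells moved with some gates, and their part in these results was not tested. The 7 B cell genes summed to 135 CPM in *CCR7*+, 150.3 CPM in *EOMES*+ and 157 CPM in *CCR9*+ cells against 60.1 CPM in *GZMB*+ cells. They summed to 111 CPM in *CCR7*+ *GZMB*-low cells and 25.2 CPM in *GZMB*+ *CCR7*- cells. The B gene cells themselves had 0 UMIs of *IL2RB* and 199 CPM of *IL2RG*. With cells of 2 or more B cell UMIs left out, the log2 ratios of the *IL2RB* level plus 1 CPM were 1.11 in *EOMES*+ and -1.69 in *CCR9*+ cells. These values are for *IL2RB* in those gates only, and the part of B cells was not tested. Of the natural killer cell genes, *KLRF1* was 179 CPM in *GZMB*+ *CCR7*- against 3.77 CPM in *CCR7*+ *GZMB*-low cells. In *GZMB*+ cells *NCAM1* was at 0 UMIs and *NCR1* at 0.93 CPM. *EOMES*+ cells had *KLRF1* at 90.6 CPM, *NCAM1* at 1 UMI and *NCR1* at 7.07 CPM. This *NCR1* level rests on 11 UMIs, of 23 over all *CD3E*+ cells. The 6 monocyte genes together stayed between 3.61 and 6.46 CPM over the gates. Of the 4 red blood cell genes 2 were detected, and they summed to 783 CPM in cells of no gate and 107 CPM in *GZMB*+ cells against 7.79 CPM in *CCR7*+ cells. The 3 genes of cycling cells summed to 75.8 CPM in *FOXP3*+ and 61.4 CPM in *CXCL13*+ cells against 18.1 CPM over all *CD3E*+ cells. Of the 3 genes of platelets, 2 were among the genes kept, and they stayed at or under 1.28 CPM over the gates. None of the genes of plasmacytoid dendritic cells was among the genes kept, so their lack of UMIs says nothing about such cells.

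The rest of the pathway was read as a list of 32 genes for receptors, ligands, kinases, STAT factors, inhibitors and targets, of which 20 had at least 10 CPM. In *CCR7*+ cells 4 of these 20 were higher and none lower, beside 2.78% and 10.6% of all 6665 genes, and in *GZMB*+ cells none was higher and 5 were lower, beside 15.8% and 5%. All of them were among *IL2RA*, *SOCS2*, *SOCS3*, *BCL2* and *MYC*. *SOCS2* and *SOCS3*, feedback inhibitors of cytokine signalling, had log2 ratios of 2.63 (2.19 to 3.09) and 2.62 (2.28 to 2.96) in *CCR7*+ *GZMB*-low over *GZMB*+ *CCR7*- cells. *BCL2*, a survival gene, was 51.5 against 17.2 CPM and *IL2RA* 17.2 against 1.60 CPM on the same axis. There 5 of the 20 list genes were higher and 2 lower, beside 7.2% and 25.4% of all 6665 genes. The lower ones were 1 STAT factor and the kinase *TYK2*, with a log2 ratio of -0.68 (-0.98 to -0.39) for *TYK2*. The 4 list genes higher in *CCR9*+ cells were *SOCS2*, *CISH*, *MYC* and *BCL2*, and none was lower, beside 1.98% and 7.56% of all genes.

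Over the same 20 genes none was higher and 4 were lower in *EOMES*+ cells, beside 2.37% and 3.24% of all genes, and none and 1 in *TRAV10*+ cells, beside 2.24% and 5.12%. In *FOXP3*+ cells 1 was higher and 4 were lower, beside 4.58% and 14.9%, and in *CXCL13*+ cells 4 and 5, beside 13.5% and 17.3%, several on 1 to 8 UMIs. The share in *TRAV10*+ cells was thus near that of all genes, and nothing is read from a list of 20 genes in the others. In *CXCL13*+ cells, *SOCS3* was 107 CPM against 32.1 CPM. The ligand *IL7*, under the floor of 10 CPM over all *CD3E*+ cells, had the opposite direction to its receptor, with 204 UMIs or 21.8 CPM in *GZMB*+ *CCR7*- and 16 UMIs or 1.72 CPM in *CCR7*+ *GZMB*-low cells, a log2 ratio of -3.66 (-4.49 to -2.93). *IL4* had 40 and 2 UMIs in the same classes. Among kinases and STAT factors no gene passed 1.5-fold in *CCR7*+ or *GZMB*+ cells, while 1 of each was lower on the axis.

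For cells that passed exactly 1 gate, or none, the groups shared no cell, and the orders could be read without overlap of members. *IL2RB* ran from 221 CPM in *EOMES*+ only cells (179 to 269) to 27.1 CPM in *CCR9*+ only cells (18.4 to 38.5), and the 4 highest groups overlapped stepwise. *IL7R* ran from 1767 CPM in *TRAV10*+ only cells (1643 to 1898) to 399 CPM in *FOXP3*+ only cells (313 to 502). The genes most like each member over these 8 groups were taken as the 3 with the highest Pearson correlation of log2(CPM + 10). For *IL2RG* they included a gene without a symbol and *LGALS3BP* (r = 0.98 each), and for *IL2RB* *LMBRD1* (0.97), *SEMA4A* (0.95) and *OSTC* (0.94). For *IL7R* they were a gene without a symbol (0.97), *YIPF5* and *SIPA1L1* (0.94 each), and for *IL4R* *RBBP6*, *LTBP4* and *DNM2* (0.99 each). For the sparse members they were *MGMT*, *CORO2A* and *PRKCB* (*IL15RA*) and *EIF2B1*, *TXN2* and *SNX20* (*IL21R*), with r between 0.96 and 0.99. These correlations rest on 8 points, of which the *CXCL13*+ only and *FOXP3*+ only groups hold 20 and 42 cells, and were picked as the highest of 6658 or 6659 genes, so they are a description only.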

How the data were processed

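Cells of 1 monkey were profiled with 10x 5′ chemistry. According to the submitters' processing notes, Mmul_10 was the genome build and Cell Ranger 3.1.0 and STAR 2.5.1b were used. The authors deposited unnormalized UMI counts, 1 value for each feature in each barcode. No annotation release is named in the sources used here.

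The cells kept had 200 to 4000 genes and no more than 20% of UMIs from mitochondria, and the genes kept were those with a UMI in at least 3 barcodes. Mitochondrial UMIs came from 13 named genes plus 2 unnamed features, taken as mitochondrial from their place in the gene list, a choice already known to leave 7601 cells. Levels are CPM, summed gene UMIs scaled to 1000000 gene UMIs. Intervals of levels are exact Poisson, of shares exact Clopper-Pearson, and of ratios of levels an exact binomial split, all at 95%. Those of co-detection ratios cover the count of cells with both only. With 1 sample per group no p-value was computed. A difference was called past 1.5-fold on the log2(CPM + 1) scale, which understates the change of low genes, while printed ratios are of CPM. A level at 0 UMIs is given with the limit that 3 counts set.

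Scrublet, run through scanpy 1.11.5 (Python 3.11.15, numpy 2.4.6, scipy 1.17.1, pandas 2.3.3), called 0 doublets among 7601 cells and so did not work here. All cells were kept, and the 5% with the highest score were left out as an alternative. For shares compared between gates, cells were thinned to 2000 UMIs with a fixed seed. The scripts were tested on simulated counts. The genes named are the 6 members, the pathway list by counts with *IL2RA* and those past 1.5-fold, the 3 genes most like each member and the companions of each gate. Gene lists of natural killer, B, red blood and cycling cells, monocytes, platelets and plasmacytoid dendritic cells, and *MED12*, were read beside them. The members, gates and lists were chosen with earlier results of these data known. The study's clusters were not rebuilt, since gates on raw UMIs replaced them. Alternatives covered the filters, gate limits, cells used, depth, averaging, pseudocount, B cell UMIs, doublet scores and tag limits. A few genes of these lists, and sequences, are not reported here.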

Additional observations from a re-analysis of the deposited data

How the results depend on the processing

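The ratios of 48 member and gate pairs were recomputed under 13 alternatives, 1 of them (cells above both tag limits) chosen after seeing the data, and the 2 that use cells of exactly 1 gate were not run for the axis, whose classes are set by both the *CCR7* and the *GZMB* gate. Of 612 recomputed values, 0 reversed the sign of a call made above. In all, 19 calls were lost and 29 gained, and 12 of 21 calls held under every alternative. Those that held include *IL15RA* in *CXCL13*+ cells, which rests on 0 UMIs and does not show a lower level. Gained calls of the sparse *IL15RA* went both ways, in log2 ratios of level plus 1 CPM. In *EOMES*+ cells it was -1.07 with gate limits of 2 UMIs and 1.38 with cells of exactly 1 gate against all others. In *FOXP3*+ cells it was 0.79 with gate limits of 2 UMIs and -2.72 after thinning. The counts of members past 1.5-fold moved by over 1.5 times as follows, and the cause was not tested. The share of all genes past the limit was recomputed only for a fold of 2 and for genes with at least 50 CPM. The counts that follow therefore have no share of all genes beside them, and nothing about the members is read from them. With gate limits of 2 UMIs (10 for *GZMB*), the count was 3 against 1 in *EOMES*+ cells and 3 against 1 in *TRAV10*+ cells. With cells of exactly 1 gate against all others it was 2 in *EOMES*+ and 4 in *TRAV10*+ cells, and against cells of no gate 3 in *EOMES*+, 2 in *TRAV10*+ and 4 against 2 in *FOXP3*+ cells. After thinning it was 0 in *TRAV10*+, 5 in *FOXP3*+ and 4 against 2 in *CCR9*+ cells. With the mean over cells of CPM it was 4 in *CCR9*+ cells. With a pseudocount of 10 CPM it was 0 in *TRAV10*+ and 1 in *FOXP3*+ cells. In cells above both tag limits it was 1 against 3 in *CCR7*+ and 2 in *TRAV10*+ cells. Of the 19 lost calls, 10 were of *IL15RA* and *IL21R*, which hold few UMIs, and 9 of abundant members. *IL2RG* in *CCR7*+ cells lost its call with the higher gate limits (-0.52), against cells of no gate (-0.37) and in cells above both tag limits (-0.54). *IL2RB* in *GZMB*+ cells lost it with the higher gate limits (0.52) and against cells of no gate (0.56), *IL4R* in *GZMB*+ cells with a pseudocount of 10 CPM (-0.57) and above both tag limits (-0.53), and *IL2RB* in *CXCL13*+ cells in the 20 cells of exactly 1 gate (-0.37 and -0.36). No called value of *IL7R* was lost.

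The share of genes past the limit fell, at a fold of 2, from 13.4% to 4.22% in *CCR7*+, 20.8% to 6.86% in *GZMB*+, 5.61% to 1.32% in *EOMES*+, 7.35% to 1.79% in *TRAV10*+, 19.5% to 6.51% in *FOXP3*+, 9.54% to 3.24% in *CCR9*+ and 30.8% to 12% in *CXCL13*+ cells, and from 32.6% to 12.2% on the axis. Over genes with at least 50 CPM it was 2.58% in *EOMES*+, 2.58% in *TRAV10*+ and 16.2% in *CXCL13*+ cells. No paired analysis was possible because the data are 1 sample with no replicate.

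Depth limits *IL15RA* and *IL21R*, with 171 and 239 UMIs in all, and the *CXCL13* gate with 73 cells. The gates rest on detection of 1 gene, so cells that express it without a captured UMI were counted as not passing.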

Other observations

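*IL21R* was sparse, and its difference in *CCR9*+ cells rests on 4 UMIs in 479 cells. It was present within both *CCR7* classes, with 1 UMI and a log2 ratio of -3.17 (-8.49 to -0.64) in *CCR7*+ cells, and 3 UMIs and -2.13 (-4.43 to -0.56) in *CCR7*- cells. Within *GZMB*-low cells, *FOXP3*+ cells had 12 *IL21R* UMIs and a log2 ratio of 1.18 (0.19 to 2.03). Over all *CD3E*+ cells without thinning, *IL4R* and *IL2RA* were found together in 131 cells where 92.2 were expected, a ratio of 1.42 (1.19 to 1.69). After thinning it was 1.12 (0.73 to 1.65), on 26 cells.

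Per cell, *IL7R* had a median of 8 UMIs in *CCR9*+ cells, where 78.7% of cells had 5 or more, and of 1 UMI in *FOXP3*+ cells, where 16.7% had 5 or more. These counts were not thinned. The median depth was 4798 UMIs in *CCR9*+ and 4157.5 in *FOXP3*+ cells, against 3655 over all *CD3E*+ cells. The highest count of *IL7R* in a single *CD3E*+ cell was 30 UMIs.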
